A study of Mus musculus with 16 samples.

Results

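The hearts of mice fed UW, a formula made for primates, were compared with the hearts of mice fed laboratory chow. The members are the 4 libraries titled UW and the 4 titled chow, which make 8 of the 16 libraries of a study of diet in cardiac ageing and fibrosis. The other 8 libraries came from mice on the primate formula NIA and on mNIA, a modified NIA formula whose sucrose and fat were set to those of UW. All animals were male C57BL/6 mice, assigned to a diet at random at 6 weeks of age and kept on it for 6 months, with free access to food. Each library came from the frozen lower ventricles of a single animal. The RNA had an integrity number above 7, was poly-A selected, and was sequenced strand-specifically as single reads of 75 bases. No genotype, transgene or drug is named for any group. The diet is given by the sample titles and by the diet label, which match. The library codes do not spell the same diets: the libraries titled UW carry the code NC, those titled NIA the code MNC and those titled mNIA the code UC. Which primate formula a group was fed was therefore not settled beyond its title, while the chow libraries carry the code CC.

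A change of diet can reach the heart through nutrient sensors. The liver X receptors respond to oxidised cholesterol and switch on genes that move cholesterol out of cells, the sterol-regulated factor SREBP2 switches on cholesterol synthesis, and the PPAR factors respond to fatty acids and switch on their oxidation. Glucocorticoids, which follow stress, fasting and the time of day, act through their own receptor on a further set of genes in cardiomyocytes. The heart muscle draws most of its energy from oxidative phosphorylation in mitochondria, and shares the ventricle with endothelial cells, fibroblasts, pericytes and macrophages.

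Total counts ran from 4263827 to 5953964 in the chow libraries and from 4880235 to 6583532 in the UW libraries. The tissue label was checked against marker genes, with expression given as CPM, counts scaled to a common library total after scaling by the trimmed mean of M-values (TMM). The ventricular light chain Myl2 was at 10100 to 11700 CPM in chow and at 7700 to 10000 CPM in UW, while the atrial light chain Myl7 reached at most 0.589 CPM in chow and 0.402 CPM in UW. The fat marker Adipoq reached at most 0.507 CPM. The libraries chow 3 and UW 1 stood apart within their diets. The summed level of 22 ventricular cardiomyocyte markers was 79800 CPM in chow 3 and 81300 CPM in UW 1, against 114000 to 127000 CPM in the other 6 libraries. The deviations of these libraries from the mean of their diet correlated at 0.58 across genes, which are not independent replicates, and the limma quality weight was 0.23 for chow 3 and 0.58 for UW 1. In bulk tissue, fewer cells of a type and less RNA per cell cannot be told apart.

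No gene differed between UW and chow past the threshold. Of 13381 genes tested with edgeR's quasi-likelihood test, 0 had a Benjamini-Hochberg adjusted p under 0.05 (0% called), and the smallest adjusted p was 0.977. At an unadjusted p under 0.05 there were 315 genes (2.35%), of which 163 (1.22%) had the higher mean in UW and 152 (1.14%) the lower. This is a smaller share than a threshold of 0.05 passes on average when no gene differs. The count depended on the fit, at 770 of 12948 genes with the 2 diets alone and 1499 of 13381 with limma-voom with quality weights. DESeq2 and limma-voom with quality weights each called 1 gene, Abca1, with adjusted p of 0.00212 and 0.00222. In 596 genes (4.45%) the 4 UW libraries did not overlap the 4 chow libraries, with UW above chow in 264 (1.97%) and below it in 332 (2.48%). This split moved with the scaling, to 312 above and 312 below under size factors of the relative log expression (RLE) and to 216 and 461 under upper-quartile scaling. Without chow 3 and UW 1, a choice made after seeing the data, 1307 genes lay above and 1092 below, of 13373 tested. Complete separation is more frequent with 3 libraries against 3 by construction.

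The genes with the smallest p included targets of the liver X receptors. Abca1, which encodes the transporter that hands cholesterol to apolipoprotein A-I (chromosome 4, 53030789 to 53159895, minus strand), was at 26, 35.3, 31.8 and 32.9 CPM in chow 1 to 4. In UW 1 to 4 it was at 52.4, 67.6, 63.5 and 62.5 CPM. Every UW library lay above every chow library, and UW 1, which stood apart in its cell markers, was the lowest of the UW libraries. The log2 fold change was 0.96 ± 0.20 (SE; 95% confidence interval 0.54 to 1.39; unadjusted p = 0.000159), a ratio of means of 1.95. Leaving out any single library of the comparison kept it between 0.88 and 1.03. Mylip encodes the ubiquitin ligase that sends the LDL receptor to degradation (chromosome 13, 45389742 to 45411940, plus strand). It was at 24.6, 22, 21 and 21.8 CPM in chow and at 36.3, 40.1, 43.8 and 25.8 CPM in UW, so that the groups did not overlap although UW 4 lay close to chow 1. Its log2 fold change was 0.71 ± 0.18 (unadjusted p = 0.00102). Lpcat3, a phospholipid-remodelling enzyme and further target that was picked after its values were seen, had a log2 fold change of 0.65 ± 0.29 with overlapping groups, and it was 0.37 without UW 3.

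The promoters of Abca1 and Mylip are printed because these genes had the smallest p among the cholesterol genes. Each window runs from 250 bases before to 50 bases after the start that RefSeq annotates on GRCm38.p6 (mm10). The Abca1 window is chr4:53159846-53160145 on the minus strand and the Mylip window is chr13:45389492-45389791 on the plus strand. Capitals mark a match to TGACC, then 5 bases of any kind, then TNACC, a form of the direct repeat that liver X receptors bind, searched on both strands. The letters were chosen after the Abca1 window was read, so its match is a description only.
Abca1: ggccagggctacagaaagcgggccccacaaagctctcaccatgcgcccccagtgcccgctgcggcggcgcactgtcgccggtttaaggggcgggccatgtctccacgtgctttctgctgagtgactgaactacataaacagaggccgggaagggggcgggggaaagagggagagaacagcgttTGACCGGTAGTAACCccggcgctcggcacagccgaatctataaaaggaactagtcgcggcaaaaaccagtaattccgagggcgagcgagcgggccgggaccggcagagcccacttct
Mylip: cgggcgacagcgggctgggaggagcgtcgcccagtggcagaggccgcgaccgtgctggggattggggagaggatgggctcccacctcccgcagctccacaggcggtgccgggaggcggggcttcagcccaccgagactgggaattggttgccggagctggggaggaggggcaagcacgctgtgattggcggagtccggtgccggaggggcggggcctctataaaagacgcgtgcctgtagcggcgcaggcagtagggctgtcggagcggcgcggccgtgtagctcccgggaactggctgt
The match in Abca1, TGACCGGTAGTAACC in the printed window, begins at -67 from the annotated start. Of 32851 promoter windows of the same length, 68 (0.207%) hold a match. Mylip holds none, which says only that these letters are not in this window.

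The wider sets of cholesterol genes had medians near 0. Of 13 tested liver X receptor targets, 8 had the higher mean in UW and 5 the lower, with a median log2 fold change of 0.06 against -0.01 over all tested genes. 3 of the 13 had an unadjusted p under 0.05, all with the higher mean in UW, against 1.22% of all tested genes on that side. The list was chosen with earlier results of these data known, so this share is a description only. The median lay between 0.07 and 0.14 when a single UW or chow library was left out. Of 22 tested genes of cholesterol synthesis and uptake, 10 were higher and 12 lower in mean (median -0.02, from -0.12 without UW 1 to 0.03 without chow 1). Dhcr7, the last enzyme of cholesterol synthesis, was at 8.39, 9.31, 9.81 and 8.62 CPM in chow and 6.57, 7.95, 6.23 and 5.94 CPM in UW. All UW libraries lay below all chow libraries, at a log2 fold change of -0.44 ± 0.21 (unadjusted p = 0.0481).

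Scd4 and Scd1, paralogous desaturases that make monounsaturated fatty acids, had unlike values. Scd4 (chromosome 19, 44333326 to 44346743, plus strand) was at 19.7, 22.2, 10.8 and 12 CPM in chow and at 47, 23.4, 90.2 and 31.6 CPM in UW. The groups did not overlap, but UW 2 lay just above chow 2. The log2 fold change was 1.57 ± 0.41 (unadjusted p = 0.00133). Scd1 lay between 19.2 and 23 CPM in chow and between 15.2 and 25.9 CPM in UW, with a log2 fold change of -0.02 ± 0.17. The difference between the genes was not tested.

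Of the other genes with a higher mean in UW, Ctgf encodes a matricellular protein that is induced in fibrosis (chromosome 10, 24595442 to 24598682, plus strand). It was at 46.3, 43.7, 42 and 40 CPM in chow and at 65.7, 79, 148 and 53.6 CPM in UW. The chow libraries lay close together, the UW libraries were all above them, and UW 3 was the highest. The log2 fold change was 1.01 ± 0.28 (unadjusted p = 0.00182), and it was 0.62 without UW 3. Nedd9, a scaffold protein of focal adhesions, was at 26.2 to 35.1 CPM in chow and 39.9 to 52.3 CPM in UW (log2 fold change 0.71 ± 0.19). Jade2, a chromatin factor, was at 15.4 to 19.8 CPM in chow and 24.9 to 38 CPM in UW (0.84 ± 0.24). Both were complete separations. Lyve1, a hyaluronan receptor of lymphatic endothelium and resident macrophages, was at 14.1, 14.3, 15.7 and 12 CPM in chow and 22.1, 31, 22 and 17.1 CPM in UW, a log2 fold change of 0.71 ± 0.21. The range of the 25 summed macrophage markers was 452 to 592 CPM in chow and 412 to 899 CPM in UW, with UW 1 and UW 2 high. Their part in the Lyve1 value was not tested. Thap2 also separated, at 11.7 to 16.2 CPM in chow and 17.3 to 26.3 CPM in UW. Ugt1a6b, an enzyme that conjugates phenols with glucuronic acid, was at 0 to 0.586 CPM in chow and 0.974 to 3.35 CPM in UW. Its assignment is uncertain, since 74.5% of the 75-base stretches of its transcripts also occur in Ugt1a6a, which overlaps it on the same strand.

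The genes with a lower mean in UW were led by Amy1, which encodes the amylase of saliva and liver (chromosome 3, 113555952 to 113577750, minus strand). It was at 35.9, 28.4, 33 and 30.2 CPM in chow and at 13.3, 18.7, 23.6 and 20.6 CPM in UW. The groups did not overlap, and the log2 fold change was -0.75 ± 0.18 (95% confidence interval -1.13 to -0.36; unadjusted p = 0.000692). Of the 75-base stretches of its transcripts, 31.3% also occur in transcripts of Rnpc3. Gsta1, a glutathione transferase, was at 5.86, 4.01, 4.32 and 7.26 CPM in chow and 1.61, 1.63, 3.12 and 2.23 CPM in UW, again without overlap (-1.33 ± 0.35). Its assignment is uncertain because 84.7% of its stretches are shared with other genes. Trpc2 reached 12.4 CPM in chow 3 and at most 0.195 CPM in UW, but chow 2 was at 0.161 CPM, and 97.5% of its stretches belong also to the overlapping gene Xntrpc.

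A further 7 genes of this rank had lower libraries in UW without overlap. Ybx2, an RNA-binding protein known from germ cells, was at 22.8, 23.1, 48.1 and 27.7 CPM in chow and between 14.5 and 16.6 CPM in UW (log2 fold change -0.93 ± 0.25). Its highest value was in chow 3, and without that library the log2 fold change was -0.62. Ppm1j, a protein phosphatase, was at 20.7 to 30.6 CPM in chow and 12.8 to 16.6 CPM in UW (-0.75 ± 0.21). Kcnk2 encodes TREK-1, a potassium channel that opens on stretch. It was at 7.60 to 10.2 CPM in chow and 3.5 to 6.03 CPM in UW (-0.95 ± 0.28). Fam173a (17.4 to 25.3 CPM in chow, 9.54 to 12.6 in UW), Dcxr, a carbonyl reductase (9.97 to 15.9 and 6.42 to 8.02), and Ift27, a component of ciliary transport (8.28 to 12.8 and 5.20 to 6.70), separated in the same direction. Chow 3 held the highest chow value in each of these 3. Snai3, of the Snail family of repressors, was at 5.07 to 6.59 CPM in chow and 1.95 to 4.48 CPM in UW.

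**Figure D1:**
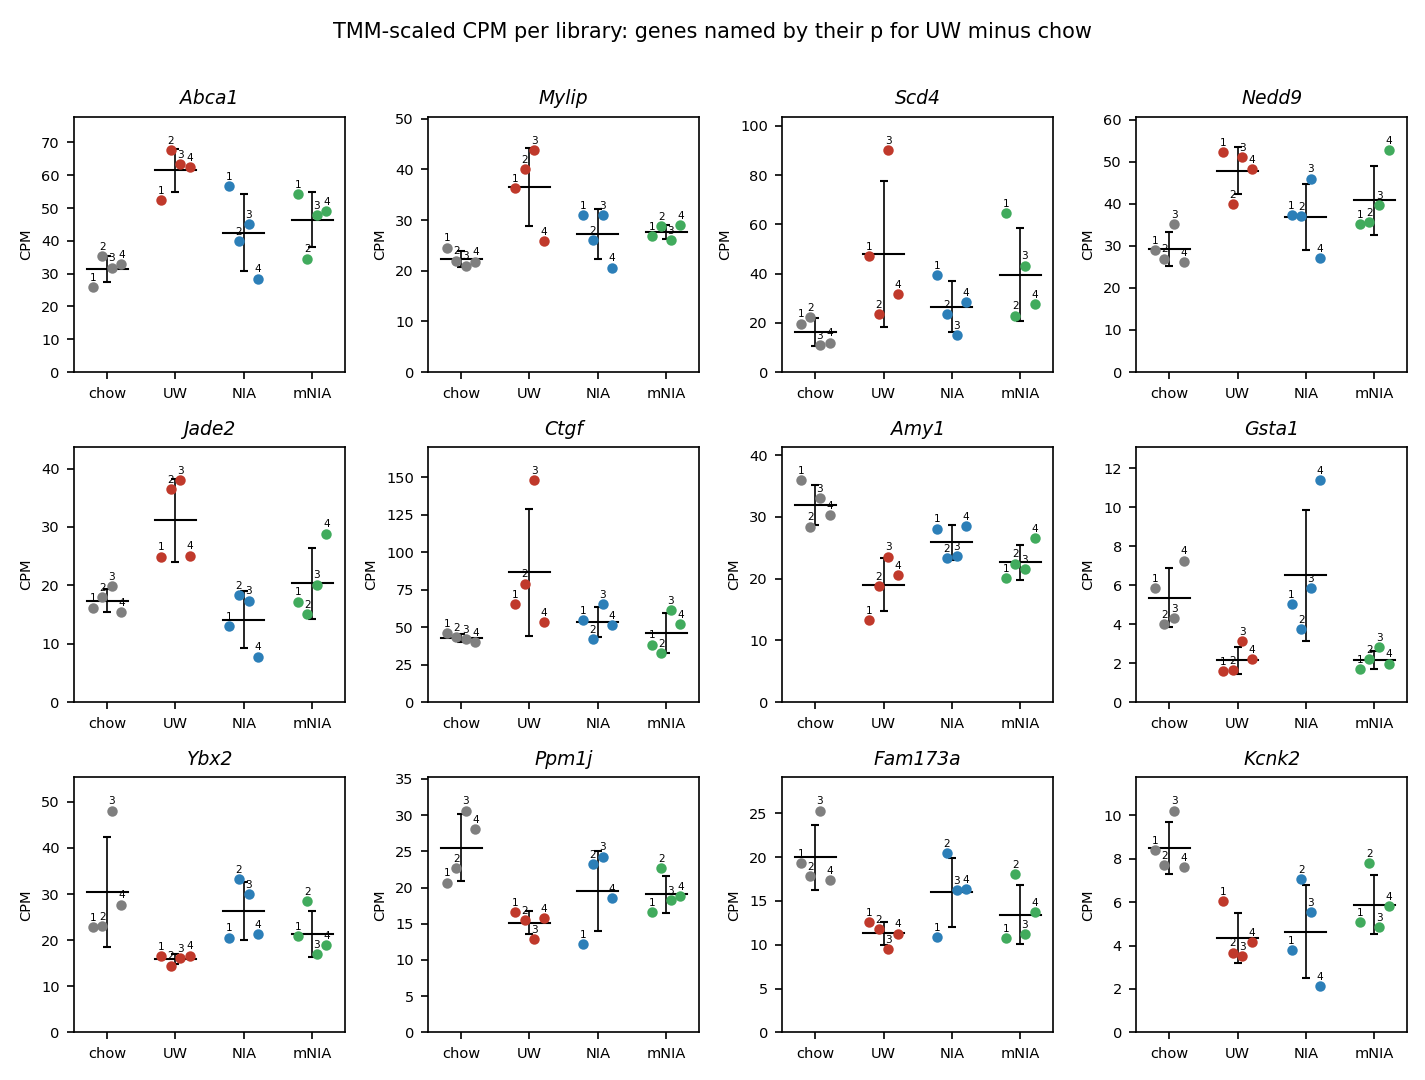
TMM-scaled CPM (y axes, from 0) of 12 genes named by their p for UW minus chow, in the 4 libraries of each diet (x axes). Points are libraries with their replicate number, bars are the mean ± SD (n = 4). In each panel the UW libraries lie all above or all below the chow libraries, and for Abca1 the chow libraries run from 26 to 35.3 CPM and the UW libraries from 52.4 to 67.6 CPM.

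Genes with the largest fold changes among those without overlap were mostly of low level. Nr4a3, an orphan nuclear receptor of the early response, was at 3.12, 2.57, 0.982 and 2.03 CPM in chow and 3.75, 12.6, 5.45 and 4.90 CPM in UW (log2 fold change 1.59 ± 0.70). Cngb3, a subunit of the cone channel, was at 0.196 to 1.77 CPM in chow and 1.88 to 5.26 CPM in UW. Myrfl was at 0.785 to 1.76 CPM in chow and 2.14 to 3.46 CPM in UW. On the lower side, Fkbp11, an isomerase of the endoplasmic reticulum, was at 2.15 to 2.57 CPM in chow and 0.297 to 1.47 CPM in UW (-1.43 ± 0.48). Ubald2 was at 9.15 to 17.1 CPM in chow and 2.52 to 8.84 CPM in UW (-1.30 ± 0.40), and 24.8% of its stretches are shared with Gm7367. Gdf10, a ligand of the BMP family, was at 3.21 to 6.08 CPM in chow and 1.02 to 2.67 CPM in UW (-1.1 ± 0.38). The fold changes of the remaining pair rested in part on chow 3. Without it, the log2 fold change of Cox7b2 moved from -1.26 to -0.47 and that of the natural killer receptor gene Klra9 from -1.31 to -0.86.

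Of 45 gene lists, 12 had a median log2 fold change of at least 0.2 in size with at least 75% of the tested members on that side. All 45 were chosen with earlier results of these data known, so their shares beside all tested genes are descriptions only. Over all tested genes the median was -0.01 and 49.2% had the higher mean in UW. The level of a list in a library was taken as the middle value, over its members, of log2 CPM after the gene's mean over the 8 libraries was subtracted. In all 12 the levels of the UW libraries overlapped those of the chow libraries, as the plot of list levels shows.

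**Figure D2:**
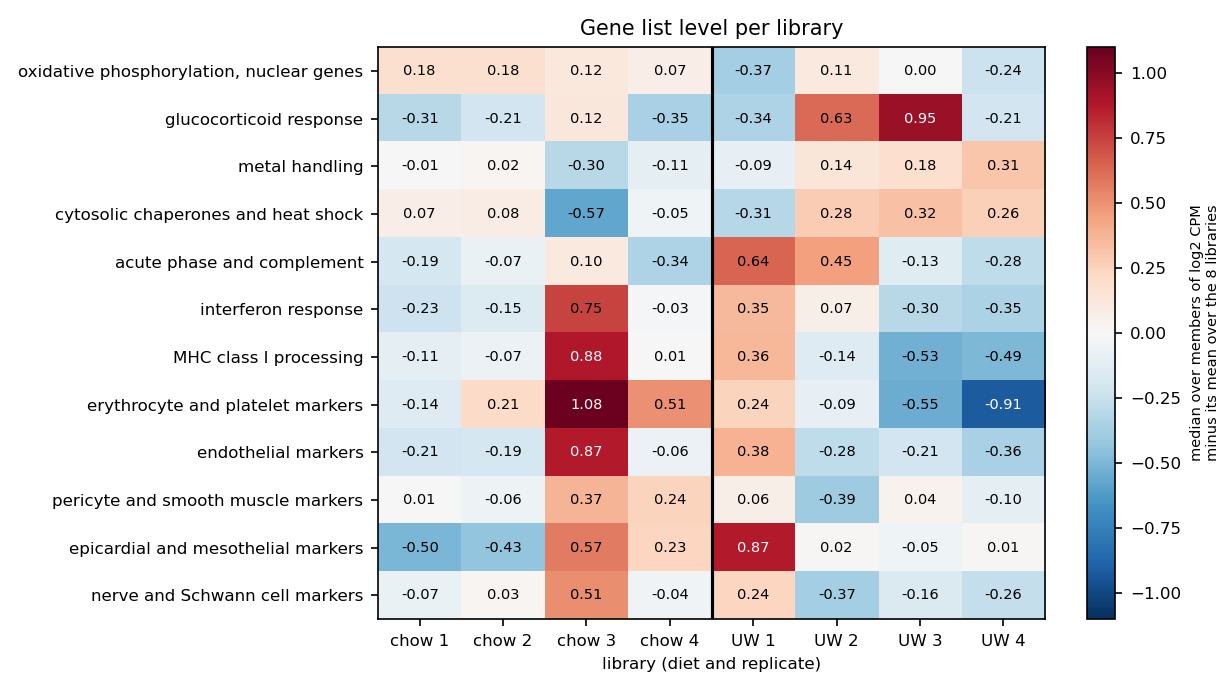
Level of the 12 lists (rows) in the 4 chow and 4 UW libraries (columns), on the log2 scale with each gene centred on the 8 libraries. Glucocorticoid response genes are high in UW 2 (0.63) and UW 3 (0.95), while chow 3 is the highest library for MHC class I processing (0.88) and endothelial markers (0.87).

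Nuclear genes of oxidative phosphorylation had lower means in UW. Of 56 tested, 47 were lower and 9 higher (median log2 fold change -0.25). In 11 of the 56 (19.6%), against 2.48% of all tested genes, every UW library lay below every chow library, and 0 lay above. The members share the same libraries, so the 11 are not separate observations. The share over all tested genes was not matched for expression level. The 11 hold subunits of complexes I, III and IV. Over all tested genes 2.35% had an unadjusted p under 0.05. Among the 56 only Ndufa2, of complex I (chromosome 18, 36742332 to 36744587, minus strand), had one (0.0374). It was at 140, 146, 244 and 137 CPM in chow and 98.9, 128, 101 and 83.7 CPM in UW, with a log2 fold change of -0.70 ± 0.31. Its chow 3 value was far above the others, and without chow 3 the log2 fold change was -0.46.

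Further members of the list separated by small margins. Ndufb5 of complex I was at 428, 421, 418 and 417 CPM in chow and 312, 409, 364 and 320 CPM in UW. Uqcrq of complex III was at 415, 426, 606 and 379 CPM in chow and 274, 369, 302 and 250 CPM in UW. Cox6c of cytochrome oxidase was at 911, 934, 1157 and 878 CPM in chow and 653, 840, 832 and 632 CPM in UW. UW 2 was the highest UW library in all 3, close to the lowest chow library. Their log2 fold changes were -0.26 ± 0.32, -0.61 ± 0.38 and -0.39 ± 0.38, each less than 2 times its SE.

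These genes have short transcripts (median 618 bases, against 1462 over all tested genes with a length), and log2 fold changes for UW minus chow were larger for longer transcripts across 13260 genes (Spearman rho 0.17, as a description across genes that share the libraries). Per library, the rank correlation of the level with length was highest in UW 4 (0.23) and UW 1 (0.13) and lowest in chow 1 (-0.13) and chow 2 (-0.12). Among the 2652 genes with the shortest transcripts (64 to 762 bases), 11 of 39 oxidative phosphorylation genes (28.2%) separated as lower, against 4.29% of the other 2613 genes there. Among genes of 763 to 1141 bases it was 0 of 11, against 3.48% of the others, with a median of -0.09 against -0.06. Among the 6 still longer members it was 0 as well, so that all 11 separated genes were of the shortest class. The part of transcript length in the list's values was not otherwise tested. The list also rested in part on UW 1, without which 45 of the 56 were lower at a median of -0.16. With chow 3 left out 56 of the 56 were lower (median -0.25), and with chow 3 and UW 1 left out 50 were (median -0.19).

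**Figure D3:**
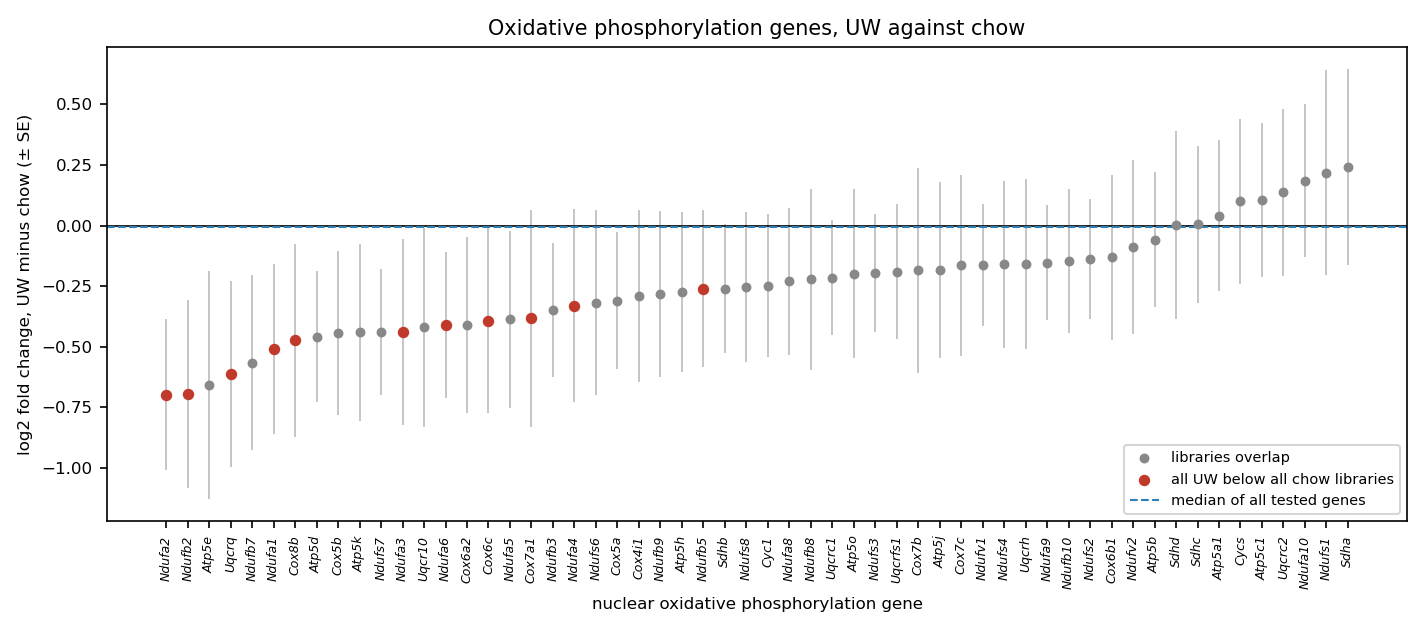
Log2 fold change, UW minus chow, with its SE (y axis) of the 56 nuclear oxidative phosphorylation genes (x axis, in order of the fold change). Red points are the 11 genes in which all UW libraries lie below all chow libraries, grey points the rest, and the dashed line is the median of all tested genes (-0.01). The red points run from -0.70 to -0.26 and the SE of most genes is near the size of the fold change.

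Glucocorticoid response genes had the largest median of the 12 lists. Of 23 tested, 20 had the higher mean in UW and 3 the lower (median log2 fold change 0.66). Of these, 4 had an unadjusted p under 0.05 and the higher mean (1.22% over all tested genes). In 0 of the 23 did the groups separate (4.45% over all tested genes). The level of the list was 0.63 in UW 2 and 0.95 in UW 3 but -0.34 in UW 1 and -0.21 in UW 4, within the chow range of -0.35 to 0.12. Cebpb, a transcription factor, was at 17.8, 16.5, 10.6 and 13.5 CPM in chow and 12.1, 44.6, 55.5 and 20.8 CPM in UW (1.18 ± 0.47). Ddit4, an inhibitor of mTORC1, was at 19.3, 20.6, 22.6 and 16.4 CPM in chow and 19.7, 55.4, 76.7 and 24.6 CPM in UW (1.16 ± 0.50). Fkbp5, a chaperone of the glucocorticoid receptor, was at 14.1, 20.4, 12.4 and 14.2 CPM in chow and 14.6, 27.1, 42.2 and 16.5 CPM in UW (0.71 ± 0.35). In all 3, UW 2 and UW 3 were high while UW 1 and UW 4 lay in or near the chow range. Cdkn1a, the cell cycle inhibitor p21, was high in the same pair (16.6, 41.1, 52.6 and 15.6 CPM in UW). The clock gene Per1 was high in UW 2 and UW 3 and, less so, in UW 4 (35.1, 90.7, 102 and 65.9 CPM in UW, 31.4 to 46.5 in chow). Without UW 3 the list's median was 0.28, and the log2 fold change was 0.75 for Ddit4, 0.33 for Fkbp5 and 0.69 for Cdkn1a, from 1.06 with all libraries.

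Metal handling genes overlapped with this list through the metallothioneins, which bind zinc and copper. Mt2 (chromosome 8, 94172618 to 94173567, plus strand) was at 6.44, 6.42, 11.6 and 2.53 CPM in chow and 8.04, 31.2, 44.4 and 11.3 CPM in UW. UW 1 and UW 4 lay at or below chow 3, so the groups overlapped, and the log2 fold change was 1.81 ± 0.47 (unadjusted p = 0.0011). It ranged from 1.31 without UW 3 to 2.19 without chow 3. Mt1 was at 54.3, 56.5, 82.6 and 43.4 CPM in chow and 42.3, 116, 127 and 49.6 CPM in UW, with the same pair of UW libraries high (0.50 ± 0.33). The Mt1 value was 0.30 without UW 2 and 0.23 without UW 3. Cp encodes ceruloplasmin, the copper-carrying ferroxidase. It was at 151, 149, 102 and 136 CPM in chow and 166, 218, 247 and 210 CPM in UW, a complete separation (0.65 ± 0.25). Of the list's 18 tested members, 15 were higher in mean (median 0.26), with the haem-degrading enzyme gene Hmox1 at 5.78 to 7.81 CPM in chow and 7.72 to 11.1 CPM in UW.

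The promoters of Mt1 and Mt2 are printed because both genes, which are neighbours, were high in the same pair of UW libraries. The windows are chr8:94178839-94179138 for Mt1 and chr8:94172368-94172667 for Mt2, both on the plus strand, from RefSeq on GRCm38.p6. Capitals mark matches to the core of the metal response element, TGCACNC, or its variant TGCGCNC, searched on both strands.
Mt1: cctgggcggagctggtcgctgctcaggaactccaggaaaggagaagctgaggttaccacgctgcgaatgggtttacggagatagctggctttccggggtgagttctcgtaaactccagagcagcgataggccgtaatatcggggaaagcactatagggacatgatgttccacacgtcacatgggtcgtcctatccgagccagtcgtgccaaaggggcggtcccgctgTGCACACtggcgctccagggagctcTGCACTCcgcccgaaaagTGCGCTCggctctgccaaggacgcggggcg
Mt2: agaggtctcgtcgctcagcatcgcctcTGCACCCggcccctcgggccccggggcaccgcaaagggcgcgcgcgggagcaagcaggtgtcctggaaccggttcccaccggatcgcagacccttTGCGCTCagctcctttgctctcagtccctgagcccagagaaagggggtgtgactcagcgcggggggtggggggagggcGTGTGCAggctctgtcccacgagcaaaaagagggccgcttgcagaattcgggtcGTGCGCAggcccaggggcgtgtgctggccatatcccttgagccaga
The Mt1 window holds 3 matches and the Mt2 window 4, none overlapping another. Of 32851 windows, 12.6% hold TGCACNC and 15.4% hold TGCGCNC, while 1.97% hold at least 3 matches to either and 0.517% at least 4.

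Acute phase and complement genes were higher in mean in 25 of 27 (median log2 fold change 0.32), 5 of them with an unadjusted p under 0.05 and the higher mean (1.22% over all tested genes). UW 1 and UW 2 were the high libraries here. Without UW 1 the median was 0.18, with 19 of 27 higher, and without UW 3 it was 0.49. The level of the list was 0.64 in UW 1 and 0.45 in UW 2, against -0.13 in UW 3 and -0.28 in UW 4. C3, the central complement component, was at 222, 225, 157 and 187 CPM in chow and 561, 464, 204 and 220 CPM in UW (0.87 ± 0.35), and its log2 fold change was 0.58 without UW 1. C4b was at 11.5, 19.3, 22 and 14.2 CPM in chow and 59.8, 58.9, 19.9 and 15.6 CPM in UW (1.20 ± 0.51), with 22.7% of its stretches shared with C4a. Serpina3n, an acute phase protease inhibitor, was at 15.8, 22.6, 15.3 and 19.4 CPM in chow and 30.7, 56.8, 36 and 20.5 CPM in UW (0.97 ± 0.31; unadjusted p = 0.00536). UW 2 was the highest, and UW 4 lay inside the chow range. The macrophage sums given above were high in the same pair of libraries as C3 and C4b, and their part in these values was not tested.

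**Figure D4:**
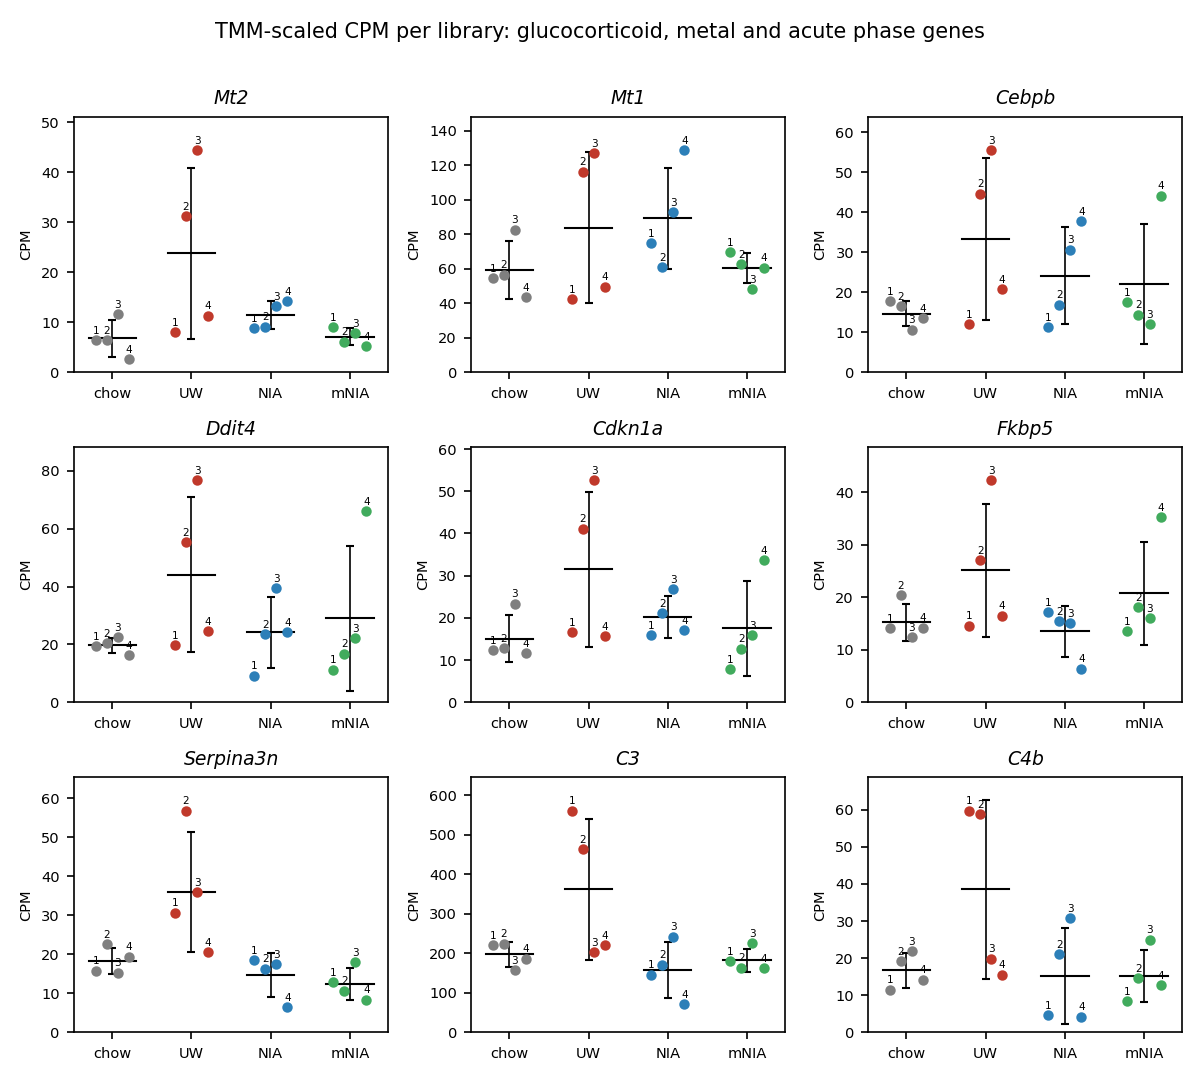
TMM-scaled CPM (y axes, from 0) of 9 glucocorticoid, metal and acute phase genes in the 4 libraries of each diet (x axes). Points are libraries with their replicate number, bars the mean ± SD (n = 4). UW 2 and UW 3 are high for Mt2, Cebpb, Ddit4 and Fkbp5, while UW 1 and UW 2 are high for C3 (561 and 464 CPM) and C4b (59.8 and 58.9 CPM).

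Cytosolic chaperones and heat shock genes were higher in mean in 24 of 26 (median log2 fold change 0.26). Of them, 0 had an unadjusted p under 0.05, against 2.35% of all tested genes. Hspa1a, the inducible HSP70, was at 1.37, 3.85, 3.14 and 2.70 CPM in chow and 4.82, 9.78, 6.42 and 5.20 CPM in UW. Its neighbour Hspa1b was at 3.32, 3.53, 3.73 and 2.37 CPM in chow and 4.56, 10.8, 7.98 and 5.49 CPM in UW. Both separated without overlap (2 of the 26, 7.69%, against 1.97% of all tested genes), but 52.7% of the stretches of Hspa1a occur in Hspa1b, so they are not independent. The list was lowest in chow 3 (-0.57) and UW 1 (-0.31), the libraries with the least cardiomyocyte marker RNA, and its median was 0.11 without chow 3 and 0.40 without UW 1.

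Immune and vascular lists had lower medians in UW and moved with chow 3. MHC class I processing genes were lower in mean in 19 of 19 (median log2 fold change -0.37), interferon response genes in 33 of 42 (-0.24) and endothelial markers in 20 of 26 (-0.21). In these lists 0 members had an unadjusted p under 0.05, against 2.35% of all tested genes. H2-Q4, a class Ib histocompatibility gene, was at 83.7, 89.3, 245 and 89.4 CPM in chow and 121, 77.2, 61.5 and 61.6 CPM in UW. The endothelial junction gene Cldn5 was at 17.4, 16.1, 74.2 and 16.4 CPM in chow and 30.4, 13.4, 10.9 and 11.6 CPM in UW. Chow 3 was highest in both and UW 1 highest among UW. Without chow 3 the medians were -0.12 for MHC class I, 0.07 for the interferon response and 0.13 for endothelial markers. Without chow 3 and UW 1 they were -0.34, -0.10 and -0.06. UW 3 and UW 4 also bore on the interferon median (-0.14 and -0.13 without either), and the endothelial median was -0.34 without UW 1 and -0.11 without UW 4. Tap1, a peptide transporter, was at 12.5, 13, 32.6 and 17.4 CPM in chow and 19, 13.2, 6.42 and 10.2 CPM in UW. Without chow 3 the log2 fold changes of H2-Q4, Cldn5 and Tap1 were -0.12, 0.01 and -0.22, against -0.66, -0.89 and -0.61 with all libraries. The 26 summed endothelial markers ran from 5390 to 7590 CPM in chow and from 5310 to 7070 CPM in UW, highest in chow 3 and UW 1, and the part of this composition in the immune lists was not tested.

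Erythrocyte and platelet markers were lower in mean in 19 of 24 (median log2 fold change -0.48), 6 of them with an unadjusted p under 0.05 and the lower mean (1.14% over all tested genes). Hbb-bs, a beta globin gene, was at 397, 503, 1012 and 662 CPM in chow and 540, 355, 212 and 178 CPM in UW (-1 ± 0.48). Hba-a1, an alpha globin gene, was at 945, 1221, 2411 and 1683 CPM in chow and 1384, 905, 509 and 478 CPM in UW (-0.93 ± 0.44). The groups overlapped, with chow 3 highest and UW 3 and UW 4 lowest. Copies of the same globin share much of their sequence, so they are not separate observations. Of the stretches of Hba-a1, 67.9% occur in Hba-a2, and of those of Hbb-bs, 51.5% occur in Hbb-bt. Hbb-bs and Hba-a1 were measured in the same libraries, so they are not independent either. The summed list ran from 3930 to 9240 CPM in chow and from 2160 to 5270 CPM in UW. Its median was -0.29 without chow 3, -0.86 without UW 2 and -0.43 without chow 3 and UW 1.

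The other lists of cell types among the 12 were small. The markers of pericytes and smooth muscle had a lower mean in 15 of 20 (median -0.24) and those of nerve and Schwann cells in 8 of 10 (-0.28), while epicardial and mesothelial markers were higher in 9 of 10 (0.22). The contractile gene Tagln was at 19.7, 23, 56.3 and 23.3 CPM in chow and 21.2, 8.76, 23.2 and 18.4 CPM in UW. The log2 fold change of Tagln was -0.77 with all libraries and -0.29 without chow 3. The summed level of the pericyte and smooth muscle markers went the other way from the median, at 2710 to 3800 CPM in chow and 3130 to 4250 CPM in UW, lowest in chow 3 and UW 1. Their median was -0.10 without chow 3 and -0.15 without UW 2, and that of the nerve list was -0.09 without chow 3 and -0.09 without UW 2. The epicardial list was high in UW 1 (0.87), and without that library its median was 0.02 (5 of 10 higher). It was 0.72 without chow 3, 0.18 without both, and 0.40 to 0.48 without UW 2, UW 3 or UW 4, fits in which 11 members were tested. The summed level of the epicardial and mesothelial markers was instead lowest in chow 3 (317 CPM) and UW 1 (381 CPM). It reached 609 CPM in chow and 632 CPM in UW. Aldh1a2, which makes retinoic acid and marks the epicardium, was at 5.27, 5.78, 7.46 and 5.41 CPM in chow and 15.9, 13.8, 7.59 and 7.42 CPM in UW (0.91 ± 0.28). Tbx18, another epicardial marker, went the other way (-0.48 ± 0.28). It was at 6.05 to 17.9 CPM in chow, highest in chow 3, and 6.11 to 7.79 CPM in UW.

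**Figure D5:**
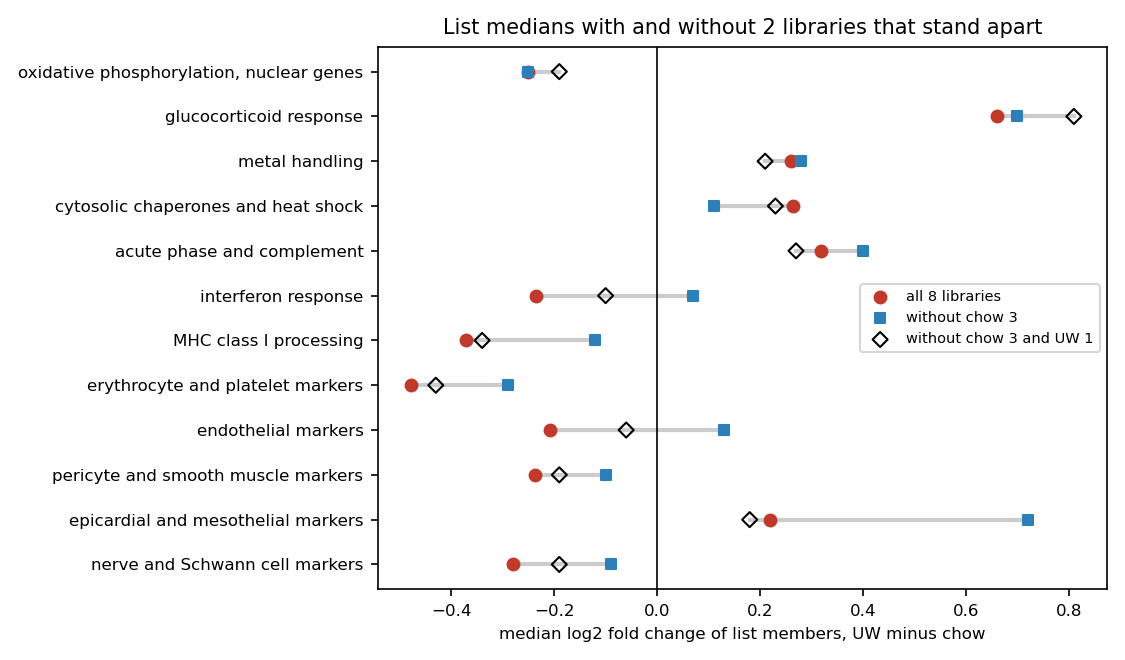
Median log2 fold change, UW minus chow, of the members of 12 lists (x axis) with all 8 libraries (circles), without chow 3 (squares), and without chow 3 and UW 1 (diamonds). The glucocorticoid list lies at 0.66, 0.70 and 0.81, whereas the endothelial list crosses 0, at -0.21, 0.13 and -0.06.

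Genes of fat and glucose use gave smaller medians. The list of PPAR targets and fatty acid oxidation held 35 tested genes, 29 of them with the higher mean (median log2 fold change 0.195). The median was 0.02 without chow 3, 0.05 without UW 3 and 0.33 without UW 1. Pdk4, a kinase that blocks glucose oxidation, was at 322, 352, 70.9 and 202 CPM in chow and 358, 231, 2441 and 675 CPM in UW. A single library, UW 3, was far above the rest, and the log2 fold change of 1.97 ± 0.71 was 0.83 without it. Acot1, a thioesterase, was highest in the same library (91.3 CPM in UW 3, 21 to 28.5 in the other UW libraries), with a log2 fold change of 1.20 ± 0.44 that was 0.46 without UW 3. Foxo3, a transcription factor restrained by insulin, was at 11.1, 16.5, 3.14 and 6.42 CPM in chow and 11.9, 23.6, 16.9 and 30.1 CPM in UW (1.14 ± 0.51). The glucose transporter gene Slc2a1 was at 9.42 to 13.7 CPM in chow and 14.1 to 21.4 CPM in UW, without overlap (0.48 ± 0.20). Genes of glucose and fructose handling had a median of -0.03, and those of the citric acid cycle 0.16. Cytosolic ribosomal proteins had one of -0.17, with 38 of 42 lower in mean and 0 separated (4.45% over all tested genes). These medians moved with chow 3. Without it they were -0.14, -0.10 (5 of 22 higher) and -0.06. The ribosomal median was also -0.08 without UW 4, and the other two reached 0.08 without UW 1 and 0.28 without chow 1.

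Stress and receptor pathways outside the 12 lists gave a few separated genes. Of 7 tested targets of the aryl hydrocarbon receptor 5 were higher in mean (median 0.34), and 2 separated as higher, against 1.97% of all tested genes. One of them, Tiparp, which adds ADP-ribose to the receptor and was picked after its values were seen, was at 13.3 to 17.8 CPM in chow and 18.3 to 24.2 CPM in UW. Ddit3, the stress factor CHOP, was at 16.6, 23.9, 30.4 and 19.4 CPM in chow and 13.9, 14.1, 14 and 12.3 CPM in UW (-0.73 ± 0.28). All UW libraries lay below all chow libraries. Chac1, which degrades glutathione and is induced by the same pathway, was at 1.18 to 2.57 CPM in chow and 2.55 to 5.09 CPM in UW (1.03 ± 0.39). Cyp26b1, which breaks down retinoic acid, was at 2.09 to 5.89 CPM in chow and 5.26 to 24.9 CPM in UW (1.64 ± 0.54), and was at 0.87 without UW 1. The unfolded protein response list had a median of 0.15 (0.08 without chow 3, 0.07 without UW 2), with Dnajc3 separated as higher (0.36 ± 0.18) and Syvn1 as lower (-0.34 ± 0.18).

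Genes of fibrosis, a subject of the study, had list medians near 0, and none of them passed the threshold. Cardiac stress and fetal genes were higher in mean in 12 of 19 (0.28), and the median was 0.08 without chow 3 and 0.14 without UW 3 or UW 4. Fibrillar collagen and matrix genes were higher in mean in 17 of 28 (median log2 fold change 0.03), profibrotic signalling genes in 20 of 33 (0.09) and matrix proteases and inhibitors in 12 of 26 (0.00). Without UW 1 these medians were -0.17, -0.02 and -0.19. Col1a1 encodes part of the type I collagen fibre (chromosome 11, 94936224 to 94953042, plus strand). It was at 124, 143, 165 and 118 CPM in chow and 198, 117, 98.7 and 113 CPM in UW. Its log2 fold change was -0.06, with a 95% confidence interval of -0.70 to 0.58. For Col3a1, a chain of type III collagen, the interval was -0.38 to 0.72, around a log2 fold change of 0.17 that was -0.16 without UW 1. The 24 summed fibroblast markers ran from 2720 to 2980 CPM in chow and from 2460 to 3860 CPM in UW, highest in UW 1, and their part in the collagen values was not tested. Vcan, a matrix proteoglycan, was at 9.76, 14.8, 19.8 and 13.7 CPM in chow and 26.8, 15.3, 16.4 and 26.1 CPM in UW (0.55 ± 0.25). Nppa, the atrial natriuretic peptide gene, had a log2 fold change of -0.32 (interval -1 to 0.36), and Nppb, the B-type peptide gene, one of 0.28 (interval -0.61 to 1.17). The first was 0.01 without chow 3 and the second 0.07 without UW 1. The sarcomere list had a median of 0.13 (-0.02 without chow 3, 0.02 without UW 4, 0.30 without UW 1), and Myh6, the main adult myosin heavy chain, lay between 16300 and 27100 CPM in chow and between 16700 and 28700 CPM in UW, lowest in chow 3 and UW 1.

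The UW libraries were also set against the other primate formulas, in comparisons that share the UW libraries with the one above. With edgeR's quasi-likelihood test, 0 of 13381 genes passed against NIA (0% called), with 1858 (13.9%) at an unadjusted p under 0.05. Against mNIA 0 passed (0% called), with 132 (0.986%) at an unadjusted p under 0.05, while DESeq2 called Serpina3n (adjusted p = 0.0353) and limma-voom with quality weights called Ptx3 (adjusted p = 0.0118), picked after its values were seen. The count against NIA was unstable, at 375 genes with DESeq2 and 916 with limma-voom. The NIA libraries were uneven in depth, from 2278250 to 63005490 counts. Mean levels of Abca1 were 31.5 CPM in chow, 61.5 in UW, 42.5 in NIA and 46.4 in mNIA, and the log2 fold change of UW was 0.52 against NIA and 0.40 ± 0.20 against mNIA. For Mylip the means were 22.4, 36.5, 27.2 and 27.7 CPM in the same order. Amy1 was at 31.9, 19.1, 25.9 and 22.6 CPM, and Gsta1 at 5.36, 2.15, 6.51 and 2.17 CPM. UW was thus the highest of the 4 means for Abca1 and Mylip and the lowest for Amy1 and, narrowly, Gsta1.

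Against mNIA, the formula with the sucrose and fat of UW, the acute phase gene Serpina3n had a log2 fold change of 1.52 ± 0.32 (unadjusted p = 0.000138) and was at a mean of 12.5 CPM in mNIA and 36 CPM in UW. Ctgf had one of 0.90 ± 0.28, Mt2 1.75 ± 0.47, C4b 1.32 ± 0.52 and Lyve1 0.65 ± 0.21. Kcnk2 (-0.42 ± 0.29), Scd4 (0.28 ± 0.40) and Gsta1 (-0.05 ± 0.38) were closer to mNIA than to chow in their means. None of these passed the threshold with edgeR's quasi-likelihood test.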

How the data were processed

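RNA-seq libraries of 16 mouse hearts were grouped by the diet in their titles. The authors deposited expected counts per gene, which the submitters' processing notes tie to BWA, DESeq2 and the build mm10. Tool versions, the counting tool and the gene models are not given in the sources used here. The file holds 17737 genes by symbol. They were rounded before testing. Gene positions (mm10, counted from 1) come from the file, less 1 base at the stop, which lay 1 base beyond the RefSeq end in 10893 of 17412 genes matched by symbol. The kit marks strand, but strand use in counting is not given, so reads of overlapping genes may be shared.

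Genes were kept by filterByExpr (13381, 75.4%), scaled by TMM and tested with edgeR 4.0.16 under R 4.3.3, in a quasi-likelihood model with 1 mean per diet over all 16 libraries. No batch is labelled and no covariate was used. Tests were 2-sided, with Benjamini-Hochberg adjustment over all tested genes and a threshold of 0.05. The common biological coefficient of variation was 0.28. The p-values measure the spread between animals, and counting error is included in it. Log2 CPM for list levels used a prior count of 2.

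Genes named were the 10 higher and 10 lower with the smallest p, reaching 1 CPM or more on average in UW or chow, with clone names left out, and the 6 higher and 6 lower of largest fold change among those without overlap. Added were for each list of at least 5 tested members, the 2 of smallest p, and 24 fixed genes. Members of the 12 lists led with may also be named. The members, rules and 45 lists were chosen with earlier results of these data known. Lists are described by counts and medians, with no test. The 33 other lists had medians from -0.52 (4 tested lymphocyte markers) to 0.34 (7 tested aryl hydrocarbon receptor targets). Shared 75-base stretches and transcript lengths came from GENCODE vM21 transcripts (78 of 79 genes), and promoters from RefSeq. In simulated counts for UW minus chow, 80.7% of 197 tested genes changed by 3-fold were recovered among 13246, and 22.2% of 198 changed by 2-fold among 13263. Each simulation changed 200 genes and drew every gene independently. Shifts shared across genes, such as those of chow 3 and UW 1, were therefore not simulated.

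Alternatives were RLE and upper-quartile scaling, DESeq2 1.42.0, limma-voom (limma 3.58.1) with quality weights, all genes unfiltered, genes over 1 CPM in 4 libraries, the 2 diets alone, a replicate block, removal of each library in turn and removal of 4 libraries of low quality weight. Removal of chow 3 and UW 1 was added after seeing the data. Sequences and figures were handled in Python 3.11.15.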

Additional observations from a re-analysis of the deposited data

Results flagged for a closer look

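Of 184 groups of 4 libraries checked for a library far from the other 3, 22 were flagged, and chance flags about 1 in 20, or 9.2. That figure is only a rough guide, since the groups share the same libraries and many hold genes chosen from these data. Chow 3 held 12 of the 22 and UW 1 held 7.

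Chow 3 was the highest chow library for Klra9 (13 CPM, others 4.68 to 5.94), Cox7b2 (13.5, others 3.21 to 3.71), Cdkn1a (23.4, others 11.7 to 12.8), Ndufa2 (244, others 137 to 146) and Ndufb2 (269, others 142 to 154). It was also the highest for H2-Q4 (245, others 83.7 to 89.4), Egfl7 (251, others 74.8 to 96.8), Cldn5 (74.2, others 16.1 to 17.4) and Tagln (56.3, others 19.7 to 23.3). The same library was highest for the list levels of MHC class I processing (0.88), endothelial markers (0.87) and nerve and Schwann cell markers (0.51).

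UW 1 was the highest UW library for Cyp26b1 (24.9 CPM, others 5.26 to 7.57), Egfl7 (114, others 52.1 to 58), Cldn5 (30.4, others 10.9 to 13.4) and Col3a1 (457, others 202 to 245), and for the epicardial list level (0.87). It was the lowest for Myh6 (16700, others 28100 to 28700) and for the chaperone list level (-0.31).

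The rest were single flags. Acot1 was at 91.3 CPM in UW 3 (others 21 to 28.5), Ddit3 at 12.3 CPM in UW 4 (others 13.9 to 14.1), and Snai3 at 6.59 CPM in chow 4 (others 5.07 to 5.30).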

How the results depend on the processing

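For UW minus chow, 0 genes passed with edgeR's quasi-likelihood test under RLE or upper-quartile scaling, both filters, the 2 diets alone, the replicate block and each fit without a single library, and 315 genes had an unadjusted p under 0.05 with all libraries. DESeq2, limma-voom with quality weights and removal of the 4 libraries of low quality weight each gave 1 (Abca1). Removing chow 3 and UW 1, chosen after seeing the data, gave 0 in the fit of all diets (226 at an unadjusted p under 0.05) and 15 with the 2 diets alone, among them Abca1, Nedd9, Jade2, Ubald2 and Per1. Genes without overlap numbered 784 to 1825 when a library was left out (1825 without UW 1, 1093 without chow 3) and 2399 without both. For UW minus NIA, DESeq2 gave 375, limma-voom 916 and removal of the low-weight libraries 1627. Leaving out a library gave 0 to 217 (217 without NIA 2, 1 without UW 3). The low-weight libraries were chow 3, NIA 1, NIA 4 and mNIA 2, with weights of 0.23, 0.3, 0.16 and 0.36. Their removal left only NIA 2 and NIA 3 for the NIA diet, and NIA 2 held 63005490 counts. For UW minus mNIA, DESeq2 and limma-voom each gave 1, and leaving out a library gave 0 to 1. The 1 gene called without UW 3, against either formula, was Cyp1a1. With all libraries Cyp1a1 did not pass the expression filter, so the main fit did not test it. The causes were not tested.

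Replicate numbers are shared between diets, and the correlations of deviations of same-numbered UW and chow libraries were -0.46, 0.22, -0.03 and 0.16. The deviations carry the shift common to UW 1 and chow 3, which correlated at 0.58. These values therefore cannot show whether same-numbered samples were handled together, and no batch is labelled. The replicate block gave 0 calls for each comparison, with 261, 1547 and 124 genes at an unadjusted p under 0.05 for chow, NIA and mNIA.

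Over fits without a single library, the interferon response median ranged from -0.32 to 0.07 (0.07 without chow 3) and that of endothelial markers from -0.34 to 0.13 (0.13 without chow 3). Without the 4 low-weight libraries they were 0.08 and 0.14. The epicardial median ranged from 0.02 (without UW 1) to 0.72 (without chow 3), and was 0.73 without the low-weight libraries. Some log2 fold changes also changed sign within such fits. That of Cldn5, at -0.89 with all libraries, ranged from -1.37 to 0.01. Smaller ones were Nppa from -0.55 to 0.01, Myh6 from -0.04 to 0.26, Col1a1 from -0.32 to 0.06, Col3a1 from -0.16 to 0.3 and Scd1 from -0.13 to 0.11. Without the low-weight libraries Cldn5 was at 0.04, Nppa at 0.01, Myh6 at -0.04 and Col1a1 at 0.05. Without chow 3 and UW 1 Nppa was at 0.07 and Col3a1 at -0.17, and with limma-voom Col3a1 was at -0.07. The chow and UW libraries held 4263827 to 6583532 counts. In the counts simulated for all 16 libraries, 22.2% of 2-fold changes were recovered. That rate leaves out shifts shared across genes, such as those of chow 3 and UW 1.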
